A study of Mus musculus with 72 samples.

Results

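Blood transcripts were compared between male C57BL/6 mice given 4 Gy of x-rays and sham-irradiated males of the same strain, 1 day after exposure. The comparison took the samples that the labels place in the 4 Gy x-ray group (5 mice) and in the control group (5 mice) of day 1, 10 of the 72 samples of a series that also holds mice given 1 Gy of x-rays or 0.25 or 1 Gy of neutrons and blood of days 3 and 7. The mice were between 8 and 10 weeks old when irradiated. Per the methods of the study, controls were mock-treated in holders on the neutron wheel with the beam off. The x-rays came from a separate machine, for which no sham is described. Any difference in handling therefore cannot be told apart from the exposure. No allele or drug distinguished the groups, each sample was blood of 1 mouse drawn by cardiac puncture into an RNA-stabilising solution, and globin transcripts were depleted before labelling. The 6 mice given 1 Gy of x-rays and bled on the same day were used to compare the doses.

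Each sample was hybridised to a 1-colour Agilent array. A level is the log2 background-corrected intensity of a gene's brightest probe minus the median of the detected probes on that array, so that a level of 0 is a transcript of middling brightness, and a change is the 4 Gy mean minus the control mean on that log2 scale, with its standard error (SE). Levels of different genes are not compared, because probes differ in their response. A gene was counted as risen or fallen when limma gave p under 0.001 and an adjusted p under 0.05. Of 10863 genes tested, 3813 (35.1%) changed after 4 Gy, of which 1790 (16.5%) rose and 2023 (18.6%) fell, with a median change of 0.00 over all genes. At an unadjusted p under 0.05 the count was 7379. Any list of genes in this comparison therefore has to be read against a background in which about 1 gene in 6 rose and slightly more fell.

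Liver transcripts differed between the arrays and were higher after 4 Gy than in controls. The hepatocyte list level, the mean over 18 tested genes that mark liver parenchymal cells, was 4.34, -0.12, 5.26, 6.46 and 0.49 in the 5 control mice and 7.69, 8.37, 8.17, 7.37 and 7.39 in the 5 mice given 4 Gy. Every mouse given 4 Gy was above every control, and the controls themselves spread over more than 6 log2 units. High levels were not particular to 4 Gy of x-rays. On day 1 the level was 1.58 to 8.73 after 0.25 Gy of neutrons and 0.16 to 7.74 after 1 Gy of neutrons. All 31 listed hepatocyte genes that failed the detection filter were well above background on all 5 arrays of the 4 Gy group, and on 3 to 5 of the control arrays. Among them the transcript of albumin, Alb, the main protein secreted by the liver into plasma, read 7.01, 0.88, 7.89, 8.68 and 2.58 in controls and 10.04, 10.48, 10.18, 9.46 and 10.03 after 4 Gy. Of the tested genes of 3 other tissues, 0 of 3 of heart muscle, 0 of 3 of skeletal muscle and 0 of 2 of lung epithelium were called in either direction by limma, with median changes of -0.13, 0.20 and -0.78. Most of their listed genes failed detection, 12 of 15, 8 of 11 and 5 of 9. In other tissue lists, given below, 11 of 11 tested genes of liver macrophages and endothelium rose, 4 of 4 of matrix-forming cells and 1 of 4 of pancreas. Myh6, the atrial and ventricular myosin heavy chain, was well above background on 1 control array and 0 irradiated arrays. The comparison was therefore also fitted with the hepatocyte level as a covariate across the 28 arrays of day 1, called the liver-adjusted fit here. In it 1788 genes (16.5%) changed, 725 (6.67%) up and 1063 (9.79%) down, 1560 genes were called in both fits and 0 of these changed sign. A further fit, called the normexp fit here, took the spots' mean brightness with another background correction and an added constant of 50. In it 1294 genes changed. The median processed intensities of the 10 arrays were 48.2 to 73.6, so a constant of this size narrows changes, those of dim probes most. The part of the constant in the lost calls was not tested. The liver-adjusted fit assumes that a gene follows the hepatocyte level along a straight line, and the 4 Gy arrays lie above all controls on that line.

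**Figure D1:**
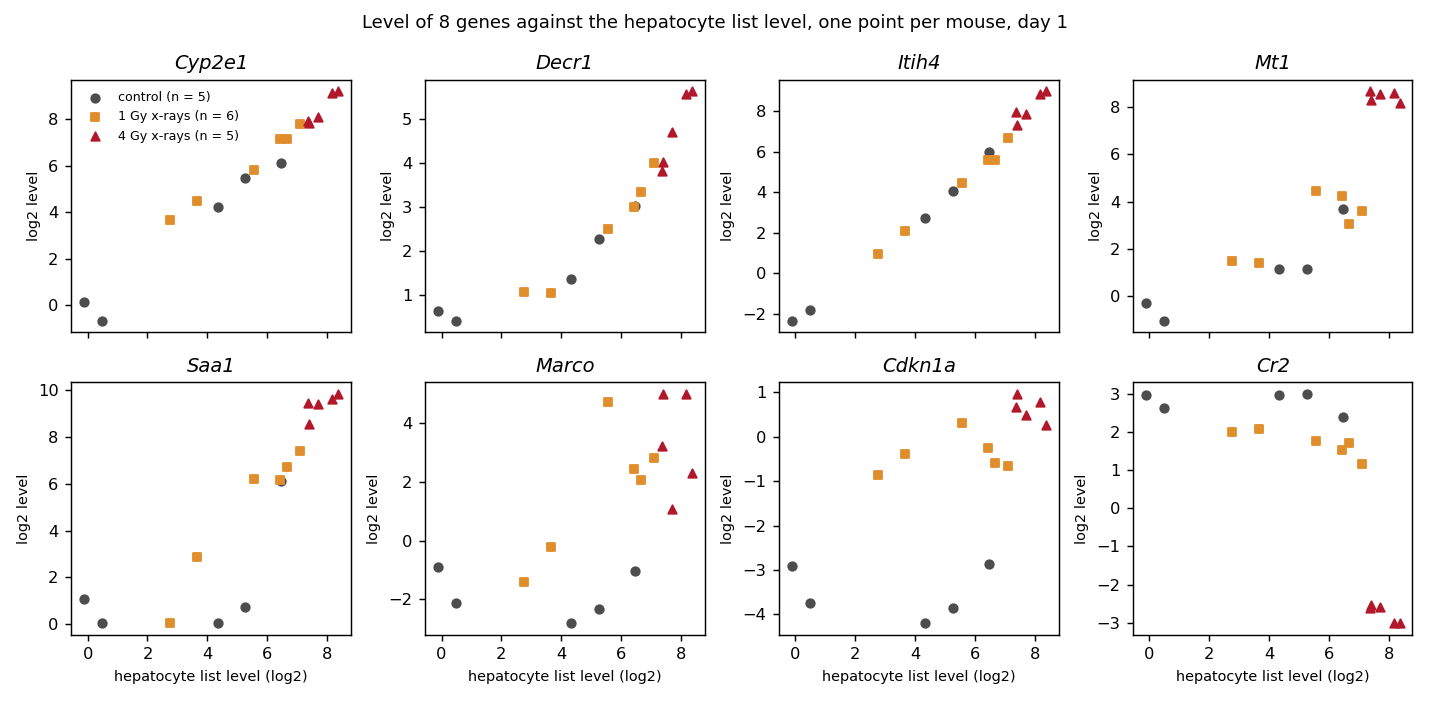
Log2 level of 8 genes (vertical axes) against the hepatocyte list level (horizontal axes, log2), with 1 point for each control mouse (grey circles, n = 5), 1 Gy x-ray mouse (orange squares, n = 6) and 4 Gy x-ray mouse (red triangles, n = 5). Cyp2e1, Decr1 and Itih4 rise with the hepatocyte level through all 3 groups. Cyp2e1 is 1 of the 18 genes averaged in that level, and Itih4 was also called higher in the liver-adjusted fit. Mt1 and Cr2 in the 4 Gy mice stand apart from controls and 1 Gy mice, with Mt1 at 8.19 to 8.68 and Cr2 at -3.02 to -2.53.

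Control replicate 4 stood apart within its group. It held the highest hepatocyte level, and its acute phase list level was 4.05 where the other controls read 0.02 to 1.85. Leaving it out gave 3747 genes changed. The 5 control arrays lay on slides 2 and 3, all read on scan day 1, and the 4 Gy arrays on slides 11 and 12, read on scan days 2 and 3. No slide and no scan day held both groups, so slide or scan day and treatment cannot be told apart. With slide as a random block 4390 genes changed and with scan day 4393, and the estimated correlation within a slide was -0.06. Because slides and scan days lay within the groups, these 2 fits cannot remove a difference that follows treatment. The share of spots well above background was 54.8% to 63.4% in controls and 55.7% to 65.6% after 4 Gy, a difference of 1.52 percentage points (exact permutation test, 2-sided p = 0.532, where the smallest p that 5 against 5 allows is 0.00794). In blood as a whole, fewer cells of a type and less RNA per cell cannot be told apart, and this holds for every list below. According to the study, cell death and the make-up of the white cells did not change significantly after irradiation. It also reported total blood counts within the normal range.

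Ionising radiation breaks DNA, and the tumour suppressor p53 is stabilised in response and switches on genes that halt the cell cycle or start apoptosis. Lymphocytes, B cells above all, are among the most radiosensitive cells of the blood, and dividing precursors are lost from blood-forming tissue early. Interferon-stimulated genes respond to nucleic acids in the wrong place, and acute phase proteins are made by the liver under the control of inflammatory cytokines. To show letters that match control elements of these gene groups, the 250 bases before the start of a member are printed (RefSeq, GRCm38.p6, 5′ to 3′). The members are a p53 target, a pair of MHC class II genes, a pair of interferon-stimulated genes and a mitotic gene. Capitals in Cdkn1a mark a match to the letters of a p53 element, a pair of decamers together with the bases between them. A decamer that misses a letter stays in lower case, so the capitals need not bound the element that p53 binds. In the others they mark the Y box letters GATTGG in the class II genes, the interferon-stimulated response element (GAAA, any 2 bases, GAAA) in the Ifit genes, and the cell cycle homology region letters TTTGAA in Ube2c, each on either strand.
Cdkn1a (chr17:29090729-29090978, plus strand): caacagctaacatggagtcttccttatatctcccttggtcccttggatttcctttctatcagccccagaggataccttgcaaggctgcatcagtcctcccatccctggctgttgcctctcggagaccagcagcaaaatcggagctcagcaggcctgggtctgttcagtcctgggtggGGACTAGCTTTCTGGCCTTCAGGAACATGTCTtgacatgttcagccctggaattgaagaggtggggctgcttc
H2-Aa (chr17:34287824-34288073, minus strand): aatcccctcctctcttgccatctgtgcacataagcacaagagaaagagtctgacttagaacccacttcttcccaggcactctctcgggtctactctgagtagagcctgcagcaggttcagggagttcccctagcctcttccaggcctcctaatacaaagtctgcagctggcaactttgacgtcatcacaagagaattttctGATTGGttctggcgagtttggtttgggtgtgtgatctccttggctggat
H2-Eb1 (chr17:34305617-34305866, plus strand): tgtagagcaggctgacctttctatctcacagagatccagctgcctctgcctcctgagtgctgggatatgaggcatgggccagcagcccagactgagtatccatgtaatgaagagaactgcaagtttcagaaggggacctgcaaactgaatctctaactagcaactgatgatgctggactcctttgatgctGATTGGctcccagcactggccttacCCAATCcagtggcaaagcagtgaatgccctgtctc
Ifit3 (chr19:34583279-34583528, plus strand): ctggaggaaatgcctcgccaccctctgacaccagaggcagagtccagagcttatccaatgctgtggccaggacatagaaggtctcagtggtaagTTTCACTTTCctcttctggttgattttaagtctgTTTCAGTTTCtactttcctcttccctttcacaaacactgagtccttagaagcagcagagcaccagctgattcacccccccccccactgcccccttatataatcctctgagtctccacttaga
Ifit1 (chr19:34640639-34640888, plus strand): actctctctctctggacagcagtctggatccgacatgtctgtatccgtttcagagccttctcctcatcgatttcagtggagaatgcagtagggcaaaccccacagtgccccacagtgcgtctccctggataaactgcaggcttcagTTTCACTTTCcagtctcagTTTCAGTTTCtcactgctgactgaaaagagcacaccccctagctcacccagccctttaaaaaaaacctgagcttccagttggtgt
Ube2c (chr2:164769679-164769928, plus strand): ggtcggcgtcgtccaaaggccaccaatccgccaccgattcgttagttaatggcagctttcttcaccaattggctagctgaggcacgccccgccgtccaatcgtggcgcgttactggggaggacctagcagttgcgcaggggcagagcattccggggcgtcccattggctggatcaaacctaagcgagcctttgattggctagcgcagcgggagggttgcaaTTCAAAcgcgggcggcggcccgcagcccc
Over windows from 250 bases before to 50 bases after the start, the p53 element, searched as a pair of decamers up to 13 bases apart, was found in 20 of 27025 genes (0.0740%). Among 16 genes of the p53 arrest and feedback list with a window, Cdkn1a alone held it, at 1 of its 2 listed starts, from 73 to 42 bases before the start printed here, and the window of the other start held none. GATTGG was found in 18.2% of all genes and in 8 of 8 class II genes with a window. The interferon-stimulated response element was found in 3.99% of all genes and in 16 of 27 interferon-stimulated genes with a window, and TTTGAA in 20.2% of all genes and in 23 of 34 genes of the mitosis list with a window. Such a match is a description of the letters and no evidence of binding, and the absence of a match says nothing of the factor.

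Cdkn1a, the p53 target that encodes the cyclin-dependent kinase inhibitor p21, rose 17.7-fold. Its level was -4.20, -2.91, -3.87, -2.87 and -3.74 in controls and 0.48, 0.26, 0.78, 0.68 and 0.96 after 4 Gy, a change of 4.15 ± 0.29 (SE, n = 5 and 5, adjusted p = 1.70e-06). The groups were more than 3 log2 units apart at their nearest values, and the change was 4.12 ± 0.46 in the liver-adjusted fit. Of the 12 tested genes of the arrest and feedback list 9 rose and 2 fell, with a median change of 1.89, and 9 rose and 1 fell in the liver-adjusted fit. In the normexp fit 4 rose and 1 fell, with a median of 1.01. Of the 18 listed genes 5 failed the filter on 1.5-fold differences and 1 failed detection. Mdm2, the ubiquitin ligase that removes p53, was among the former, is named after its values were seen, and read 2.70 to 3.31 in controls and 3.40 to 4.07 after 4 Gy.

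The other members that rose differed in size. Phlda3, which restrains Akt signalling, read 0.83, 1.63, 0.83, 1.25 and 0.66 in controls and 3.93, 3.07, 2.97, 3.17 and 3.84 after 4 Gy, a rise of 2.35 ± 0.27 (adjusted p = 4.33e-05) with no overlap between the groups. Ccng1, encoding cyclin G1, had the tightest controls of these genes, at 0.18, 0.35, 0.36, 0.21 and 0.23, and read 1.59, 1.20, 1.35, 1.76 and 1.67 after 4 Gy. All irradiated mice were above all controls, with a rise of 1.25 ± 0.19. Psrc1, a microtubule-associated protein, rose by 2.38 ± 0.23 and Zmat3, an RNA-binding protein, by 0.85 ± 0.19. Gtse1, a negative regulator of p53 in G2, rose by 1.43 ± 0.25, and its probe was well above background on 2 control arrays and on all 5 irradiated ones. The polo-like kinase genes Plk2 and Plk3 rose by 2.59 ± 0.31 and 2.70 ± 0.27, and the ribosomal protein paralogue Rps27l by 2.46 ± 0.30. All 9 were called in the liver-adjusted fit as well.

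Some genes of the p53 pathway went the other way. Trp53 itself, which encodes p53, read -1.18, -0.75, -0.83, -1.35 and -1.14 in controls and -2.53, -3.27, -2.96, -2.72 and -3.03 after 4 Gy, a fall of 1.85 ± 0.21 (adjusted p = 4.23e-05). No irradiated mouse reached the lowest control. Sesn1, a stress-induced inhibitor of mTORC1 signalling, fell by 1.32 ± 0.26 and was not called in the liver-adjusted fit (-0.88 ± 0.26). Ddit4, which responds to hypoxia and glucocorticoid as well as to p53, changed by -0.11 ± 0.34 and was not called. In the damage-induced repair list 3 of 10 genes were tested and 2 fell, namely Ddb2, the damage sensor of nucleotide excision repair, by 1.63 ± 0.22, and Rrm2b, the p53-inducible subunit of ribonucleotide reductase, by 1.65 ± 0.24. The change of Gadd45a, a growth arrest gene, was -0.75 ± 0.29 (adjusted p = 0.0391) and was not called. Rrm2b was well above background on 4 of the 5 irradiated arrays, its change was 0.079 in the normexp fit, and 0 genes of the damage-induced repair list were called there.

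Of the 7 tested apoptosis genes of the p53 pathway 4 rose and 1 fell, with a median change of 0.97. Bax, the pore-forming effector of mitochondrial apoptosis, read 3.00, 2.93, 2.51, 2.31 and 2.61 in controls and 3.73, 3.50, 3.35, 3.47 and 4.16 after 4 Gy. The groups did not overlap, and the rise was 0.97 ± 0.23 (adjusted p = 0.00283). Aen, an apoptosis-enhancing nuclease, rose by 1.68 ± 0.20 and Ei24, an endoplasmic reticulum protein, by 1.74 ± 0.24. Perp, a p53 and p63 target of epithelia, rose by 3.54 ± 0.58, with controls from -2.21 to 1.22, and the change was 0.69 ± 0.41 and not called in the liver-adjusted fit. Bbc3, encoding the BH3-only protein PUMA, changed by 0.89 ± 0.23 (adjusted p = 0.00491) and was called only in the liver-adjusted fit, at 1.29 ± 0.22. Trp53i11 fell by 2.18 ± 0.24, and Triap1, an inhibitor of apoptosis, changed by 0.75 ± 0.24 and was not called. Among 5 tested BCL2 family genes the antiapoptotic Bcl2l2 rose by 1.41 ± 0.24 (20% of the list, against 16.5% of all genes). The other 4 were not called, and 0 were called in the liver-adjusted or the normexp fit.

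**Figure D2:**
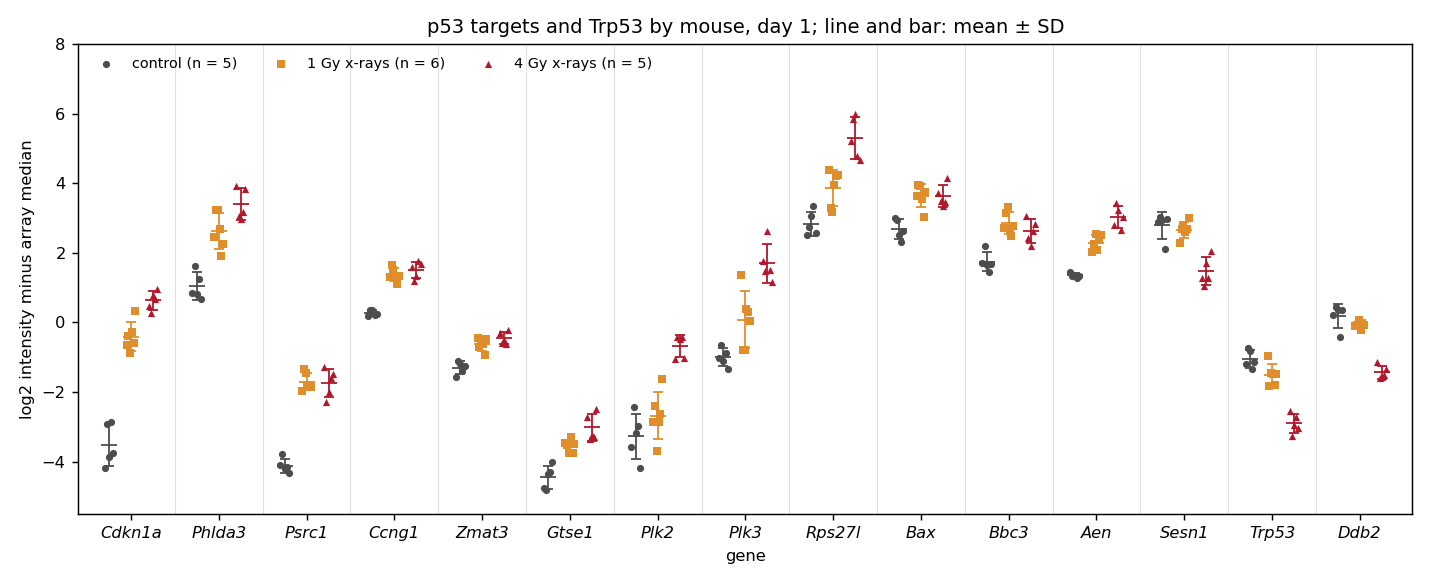
Levels (vertical axis, log2 intensity minus array median) of 15 genes of the p53 pathway in control (grey circles, n = 5), 1 Gy x-ray (orange squares, n = 6) and 4 Gy x-ray mice (red triangles, n = 5), with the mean and SD of each group. Cdkn1a in 1 Gy mice lies between -0.87 and 0.32 and close to the 4 Gy mice, Bax and Ccng1 have the 2 doses on top of each other, and Trp53 and Ddb2 fall at 4 Gy.

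B cell transcripts had the lowest median change of the blood cell lists. Of 28 listed genes 25 were tested, and of these 24 fell and 0 rose, with a median change of -4.09. The mean level of the list was 3.02, 2.85, 2.90, 2.21 and 2.92 in controls and -1.51, -1.49, -0.68, -1.12 and -0.28 after 4 Gy. All irradiated mice were below all controls, and 22 genes fell in the liver-adjusted fit. Ralgps2, a guanine nucleotide exchange factor and the remaining member, named after its values were seen, was not called (-0.55). Cr2, the complement receptor CD21, read 2.97, 2.99, 3.01, 2.39 and 2.64 in controls and -2.58, -3.01, -3.02, -2.63 and -2.53 after 4 Gy, a 47.0-fold fall (-5.56 ± 0.21, adjusted p = 3.02e-08). Control replicate 4, with its high hepatocyte level, was the lowest control at 2.39.

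The other leading B cell genes behaved likewise. Fcer2a, the low-affinity IgE receptor CD23 of follicular B cells, read 2.32, 1.91, 2.50, 1.91 and 2.71 in controls and -4.24, -5.10, -4.13, -4.00 and -3.97 after 4 Gy. The groups were over 5 log2 units apart, and the probe was well above background on 3 of the 5 irradiated arrays. Ebf1, a transcription factor that specifies the B lineage, fell by 5.29 ± 0.33, Vpreb3, a chaperone-like protein of the B cell receptor, by 5.33 ± 0.35, and Fcmr, the Fc receptor for IgM, by 5.15 ± 0.31. Outside the B cell list, Chst3, a chondroitin sulfotransferase, fell by 5.56 ± 0.28. Pla2g2d, a secreted phospholipase of group II and also outside that list, showed the largest fall among the named genes. It read 1.24, 2.04, 2.18, 1.02 and 1.69 in controls and -5.57, -6.47, -5.53, -5.63 and -5.21 after 4 Gy, and was well above background on 0 irradiated arrays, which makes it at least 82.7-fold lower (adjusted p = 3.02e-08). The transcript ENSMUST00000192250, for which no symbol was matched, fell by 6.80 ± 0.29.

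All 11 MHC class II genes tested fell, 11 of 11 listed, with a median change of -3.89 and a range from -5.82 to -2.81. Class II molecules display peptides to CD4+ T cells and are made by B cells, dendritic cells and macrophages. H2-Aa, the I-A alpha chain, read 4.80, 4.27, 4.78, 4.17 and 4.95 in controls and -0.34, -0.05, 1.13, 0.97 and 1.29 after 4 Gy. The 15.9-fold fall (-3.99 ± 0.34, adjusted p = 6.04e-06) left the groups nearly 3 log2 units apart. H2-Eb1 and H2-Ab1, the I-E and I-A beta chains, fell by 3.21 ± 0.35 and 3.25 ± 0.38. H2-Eb2, a further beta chain gene, fell by 5.82 ± 0.43 and was well above background on 2 of 5 irradiated arrays.

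The peptide-loading genes of class II split by size. H2-Oa and H2-Ob, which modulate loading mainly in B cells, fell by 4.19 ± 0.24 and 4.66 ± 0.31, whereas H2-DMa and H2-DMb1, which catalyse loading, fell by 2.81 ± 0.26 and 3.04 ± 0.30. The difference between these pairs was not tested. H2-DMb2 fell by 5.11 ± 0.42. Cd74, the invariant chain, read 6.22, 6.33, 6.22, 5.64 and 6.29 in controls and 1.97, 2.11, 3.54, 2.93 and 3.18 after 4 Gy, with no overlap and a fall of 3.39 ± 0.31. Ciita, the transactivator that all class II genes need, fell by 3.89 ± 0.24. All 11 also fell in the liver-adjusted fit, with a median of -3.31. Of 4 tested genes of class I presentation 0 were called in either direction by limma, with changes from 0.34 to 0.88, and 1 rose without 4 Gy replicate 3.

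T cell transcripts had a smaller median change than those of B cells, and not all of them fell. Of 27 tested T cell genes 18 fell and 1 rose, with a median change of -1.79, against 8 fallen and 0 risen in the liver-adjusted fit. Cd8a, the CD8 alpha chain, read 1.34, 1.09, 1.06, 0.15 and 1.20 in controls and -1.74, -2.51, -3.10, -2.64 and -1.65 after 4 Gy. The groups were more than 1.5 log2 units apart, with control replicate 4 the lowest control and a fall of 3.30 ± 0.32 (adjusted p = 1.59e-05). Cd8b1, its partner chain, fell by 2.95 ± 0.27. Lef1, a transcription factor of naive T cells, fell by 2.66 ± 0.39 and Ccr7, the receptor that guides naive lymphocytes to lymph nodes, by 3.47 ± 0.39. Cd4, the only member that rose and chosen here after its values were seen, read 3.04, 3.12, 3.00, 4.55 and 3.69 in controls and 5.12, 6.33, 6.50, 6.22 and 5.30 after 4 Gy. Its groups did not overlap, the rise was 2.42 ± 0.37, control replicate 4 was the highest control, and the gene was not called in the normexp fit.

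Receptors that guide lymphocytes were among the chemokine receptors that fell. Of 14 tested receptors 5 fell and 1 rose, and the latter call was lost without control replicate 1 or 5 and in the normexp fit. In the liver-adjusted fit 4 fell and 2 rose. Ccr6 fell by 5.44 ± 0.31 and Cxcr5, the receptor for B cell follicles, by 4.09 ± 0.40. Ccr9, which marks gut-homing and thymic T cells, fell by 2.14 ± 0.31. Cx3cr1, the fractalkine receptor of patrolling monocytes and cytotoxic cells, fell by 2.13 ± 0.32 and was not called in the liver-adjusted fit (-1.54 ± 0.46).

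Natural killer and cytotoxic transcripts showed 1 call. Of 19 tested genes 0 fell and 1 rose, with a median change of 0.58. The count that rose was 3 without 4 Gy replicate 3, 2 without 4 Gy replicate 2, 3 in the liver-adjusted fit, with a median of 1.27, and 0 in the normexp fit. Gzmb, the protease granzyme B of cytotoxic granules, read 1.13, 1.26, 1.46, 1.37 and 1.46 in controls and 3.56, 2.11, 2.47, 3.85 and 3.80 after 4 Gy, a rise of 1.82 ± 0.34 (adjusted p = 0.000709) with all irradiated mice above all controls. Ncr1, the NKp46 receptor, and Prf1, encoding perforin, both chosen after their values were seen, changed by 0.57 and -0.12 and were not called. The list level was 1.15 to 1.32 in controls and 1.04 to 2.60 after 4 Gy, so that the groups overlapped.

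**Figure D3:**
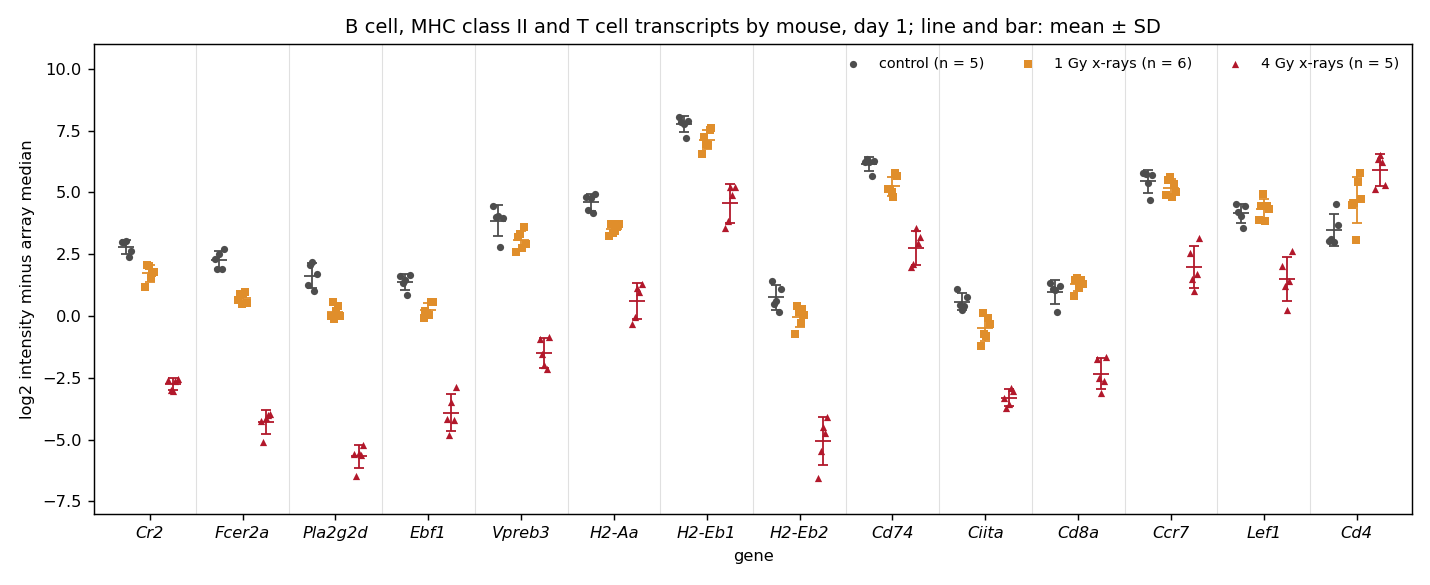
Levels (vertical axis, log2 intensity minus array median) of 14 genes, namely Pla2g2d and members of the B cell, class II and T cell lists. Symbols are control (grey circles, n = 5), 1 Gy x-ray (orange squares, n = 6) and 4 Gy x-ray mice (red triangles, n = 5), with the mean and SD of each group. B cell and class II genes are far lower at 4 Gy than at 1 Gy, as with Cr2 at -3.02 to -2.53 against 1.18 to 2.08, and the 1 Gy values of Cd8a, Ccr7 and Lef1 overlap the controls.

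Transcripts of the red cell membrane fell. Of 19 tested genes 12 fell and 1 rose, with a median change of -2.80, and 6 fell and 2 rose in the liver-adjusted fit. In the normexp fit 6 fell and 0 rose, and the median was -0.10. The median of this list therefore depends on the background correction and the constant added with it. The count that rose was 2 without 4 Gy replicate 2 or 3. Slc4a1, the band 3 anion exchanger, read 5.37, 6.24, 5.67, 7.08 and 6.71 in controls and 2.87, 1.5, 0.37, 2.96 and 1.38 after 4 Gy. The groups did not overlap (-4.40 ± 0.50, adjusted p = 3.76e-05), and within the controls the replicates of slide 3, numbers 4 and 5, were the highest. Erythroid ankyrin, Ank1, fell by 5.58 ± 0.64, with its probe well above background on 2 of 5 irradiated arrays. Aqp1, a water channel of red cells and endothelium chosen after its values were seen, was the member that rose, by 1.53. The list level in controls was 0.23 to 1.24, and after 4 Gy -2.53 to -0.75.

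Erythroid regulators split in direction. Of 22 tested genes of erythroid regulation and reticulocyte maturation 14 fell and 3 rose, against 8 and 5 in the liver-adjusted fit and 7 and 0 in the normexp fit. The count that rose was 1 without control replicate 1, 3 or 5 or 4 Gy replicate 5, 2 without control replicate 4 or 4 Gy replicate 1 or 4, and 4 without 4 Gy replicate 2 or 3. Ahsp, the chaperone of alpha haemoglobin, read 4.83, 4.56, 4.26, 6.16 and 5.80 in controls and 2.48, 1.39, 0.29, 2.26 and 1.58 after 4 Gy, a fall of 3.52 ± 0.46 without overlap. Trim10 fell by 3.38 ± 0.46, the haematopoietic cofactor Lmo2 by 3.02 ± 0.23, and the deubiquitinase Yod1 by 2.78 ± 0.28. The 3 that rose, chosen after their values were seen, were Tal1, a haematopoietic transcription factor (1.48), Epor, the erythropoietin receptor (1.57), and the autophagy kinase gene Ulk1 (2.03), which had no value for 4 Gy replicate 2 and was fitted without it. Of 13 tested genes of heme synthesis 2 fell and 2 rose, 15.4% each way, close to the 18.6% and 16.5% of all genes. The mitochondrial iron importer Slc25a37 fell by 3.63 ± 0.39 and ferrochelatase, Fech, by 2.16 ± 0.29. The other 2 called genes, Alad (2.27 ± 0.42) and Abcb6 (2.76 ± 0.51), rose and were not called in the liver-adjusted fit, and another probe of Alad changed by -0.01.

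Mitotic transcripts fell and none rose. Of 28 tested genes 17 fell, with a median change of -1.16, and 9 fell in the liver-adjusted fit. In the normexp fit 7 fell, with a median of -0.19. Nusap1, a spindle protein, read 3.54, 3.61, 3.55, 4.2 and 4.21 in controls and 0.20, -0.88, -1.41, 0.54 and -0.23 after 4 Gy. This 18.1-fold fall (-4.18 ± 0.35, adjusted p = 5.94e-06) left 3 log2 units between the groups. Ube2c, the ubiquitin-conjugating enzyme of the anaphase-promoting complex, read 5.07, 5.51, 5.26, 5.87 and 6.12 in controls and 3.54, 2.16, 1.33, 3.38 and 2.60 after 4 Gy. The fall was 2.96 ± 0.40, again without overlap, and again the slide 3 controls were highest. Cyclin A2, Ccna2, fell by 3.00 ± 0.36 and the CDK-activating phosphatase Cdc25b by 3.22 ± 0.33.

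Regulators of the cell cycle fell with them. Fzr1, the Cdh1 activator of the anaphase-promoting complex, fell by 1.75 ± 0.25. In the E2f family and pocket protein list 3 of 8 tested genes fell, namely E2f2 (-2.63 ± 0.36), the E2f dimer partner Tfdp2 (-2.92 ± 0.35) and the pocket protein Rbl1 (-1.84 ± 0.29). Of 26 tested DNA replication genes 10 fell and 2 rose, and in the normexp fit 6 fell and 2 rose. Pold1, the catalytic subunit of polymerase delta, fell by 2.39 ± 0.21 and Mcm5 of the replicative helicase by 1.97 ± 0.25. The risers were Mcm10, a replication initiation factor (4.60 ± 0.65), and thymidine kinase, Tk1 (2.69 ± 0.33), and neither was called in the liver-adjusted fit (1.36 ± 0.44 and 1.28 ± 0.39). Mcm10 read -0.92, -3.27, -1.14, 0.08 and -3.16 in controls, with its lowest values in the mice with the lowest hepatocyte levels.

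DNA repair genes fell, and this depended on the background correction and the constant added with it. Of 17 tested genes of double-strand break repair 9 fell and 0 rose, and of 15 of mismatch and excision repair 8 fell and 0 rose. The medians were -0.96 and -1.16. In the liver-adjusted fit 4 and 6 fell. In the normexp fit 0 and 3 fell, and the median of the break repair list turned to 0.26 while that of the excision repair list was -0.48. In the excision repair list 1 gene rose without 4 Gy replicate 4 or 5. Atm, the kinase that senses breaks, read -1.76, -1.98, -1.40, -1.88 and -0.96 in controls and -3.60, -3.28, -3.45, -3.50 and -3.32 after 4 Gy, a fall of 1.83 ± 0.23 without overlap. Trp53bp1, which steers breaks towards end joining, fell by 1.53 ± 0.19. Parp1, the poly(ADP-ribose) polymerase that marks strand breaks, fell by 2.13 ± 0.26, the glycosylases Mbd4 and Mutyh by 2.42 ± 0.25 and 2.21 ± 0.26, and DNA ligase I, Lig1, by 2.35 ± 0.41. Fanci and Exo1 were well above background on 1 and 0 irradiated arrays. Exo1, a resection nuclease, was at least 2.46-fold lower, but it and Fanci changed by 0.39 and 0.14 in the normexp fit, so their direction rests on the correction used.

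Interferon-stimulated genes rose. Of 31 tested genes 15 rose and 1 fell, with a median change of 1.21, and 20 rose and 0 fell in the liver-adjusted fit. In the normexp fit 4 rose and 1 fell, with a median of 0.87, and 2 fell without 4 Gy replicate 4. Ifit3, an antiviral protein that binds RNA-sensing complexes, read 0.34, 0.91, 0.57, 1.51 and 0.13 in controls and 4.52, 3.53, 3.70, 5.57 and 4.45 after 4 Gy. This was a 12.7-fold rise (3.66 ± 0.39, adjusted p = 2.40e-05) without overlap. Replicate 4 was highest in both groups, and the 4 Gy replicate 4 also had the highest neutrophil list levels. Ifit3b, a near-identical gene outside the list whose signal may not be separable from that of Ifit3, rose by 4.37 ± 0.46, Ifit1 by 2.59 ± 0.46, Oasl1, an oligoadenylate synthetase-like protein, by 2.84 ± 0.42 and Rtp4 by 2.58 ± 0.38.

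The response was not shared by all members. Rsad2, encoding viperin and chosen after its values were seen, was the member that fell, from 6.52, 6.81, 6.91, 7.62 and 7.34 in controls to 5.02, 3.92, 3.53, 5.92 and 4.61 after 4 Gy. Its groups did not overlap (-2.44 ± 0.41). Isg15, the ubiquitin-like modifier, and Irf7, the master transcription factor of type I interferon, also chosen after their values were seen, changed by -1.14 and -0.28 and were not called. Of the 16 genes with the interferon-stimulated response element in their window 14 were tested, of which 7 rose and 1 fell. In the Schlafen family, myeloid and lymphoid genes induced by interferon, 2 of 5 tested genes rose. Slfn4 read -2.18, -0.82, -2.05, -0.45 and -1.90 in controls and 2.43, 1.62, 1.77, 4.14 and 2.84 after 4 Gy, a rise of 4.04 ± 0.49, and Slfn3 rose by 3.39 ± 0.45.

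Acute phase and metallothionein transcripts showed the largest rises. Of 9 tested acute phase genes 8 rose, with a median change of 6.18, and 6 rose in the liver-adjusted fit, with a median of 1.84. The list level was 0.02 to 4.05 in controls and 6.47 to 7.44 after 4 Gy. Mt1, a metallothionein that binds zinc and responds to glucocorticoid and cytokines, read 1.13, -0.29, 1.13, 3.71 and -1.04 in controls and 8.55, 8.19, 8.61, 8.68 and 8.29 after 4 Gy. The irradiated mice lay within 0.5 log2 units of each other and at least 4 above every control, with a change of 7.54 ± 0.68 (adjusted p = 9.19e-06) and 5.44 ± 0.68 in the liver-adjusted fit. Mt2 rose by 7.26 ± 0.68 and, liver-adjusted, by 4.73 ± 0.67. Control replicate 4, whose hepatocyte level was 6.46, read 3.71 for Mt1 and 3.31 for Mt2.

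Saa1, the serum amyloid A of the liver acute phase, separated control replicate 4 from its group. It read 0.07, 1.09, 0.74, 6.11 and 0.07 in controls and 9.38, 9.82, 9.59, 9.45 and 8.52 after 4 Gy, a rise of 7.74 ± 0.95 (adjusted p = 6.32e-05). Control replicates 1 and 3, at 0.07 and 0.74, had hepatocyte levels of 4.34 and 5.26. The part of liver RNA in this rise was not tested beyond the liver-adjusted fit. Saa3, made by macrophages as well as by liver, read -1.46, 1.32, -1.47, -0.68 and -0.38 in controls and 2.38, 4.79, 7.37, 6.77 and 6.89 after 4 Gy, a rise of 6.18 ± 0.87 without overlap and 7.23 ± 1.59 liver-adjusted. Itih4 rose by 6.47 ± 1.36 and by 1.10 ± 0.23 liver-adjusted. Usp2, a clock- and glucocorticoid-responsive deubiquitinase, rose by 5.58 ± 0.35 and by 4.18 ± 0.72 liver-adjusted. Haptoglobin, Hp (3.68), complement C3 (4.91) and the endotoxin-binding protein gene Lbp (4.29), named after their values were seen, rose, and of these Hp was called liver-adjusted. Socs3, the feedback inhibitor of cytokine signalling, chosen after its values were seen, was the acute phase member that was not called (0.56).

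Transcripts of hepatocyte identity rose in the unadjusted comparison only. Of 18 tested hepatocyte genes 8 rose, 17 had groups without overlap (20.8% of all genes had all irradiated mice above all controls, and 44.3% had groups apart in either direction) and the median change was 4.62, and 0 were called in either direction in the liver-adjusted fit, whose covariate is their mean. The count that rose was 15 without control replicate 4, 3 without 4 Gy replicate 1, 2 or 3, 4 without 4 Gy replicate 4 or 5, and 5 without control replicate 2 or 5. Cyp2e1, an ethanol-oxidising cytochrome P450, read 4.23, 0.11, 5.48, 6.11 and -0.68 in controls and 8.12, 9.22, 9.16, 7.94 and 7.85 after 4 Gy, a rise of 5.41 ± 1.17. Hrg, Adh1 and Azgp1 rose by 5.45 ± 1.15, 5.35 ± 1.13 and 5.06 ± 1.18. Further liver genes were among the largest rises. The drug-metabolising Cyp2d26 (5.85 ± 1.31), the bile acid and drug transporter Slco1b2 (5.54 ± 1.22) and the mitochondrial carrier Slc25a47 (5.53 ± 1.10), were not called liver-adjusted, at 0.24, 0.40 and 0.57. Fgl1, a hepatokine, rose by 5.50 ± 0.68.

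Lipid metabolism genes rose, and most of these calls were lost in the liver-adjusted fit. Of 22 tested genes of fatty acid beta-oxidation 20 rose, and of 21 of sterol synthesis 16 rose, with median changes of 2.33 and 1.75. Liver-adjusted, 1 gene of each list rose, with medians of 0.82 and 0.41, and in the normexp fit 13 and 7 rose. All 4 Gy mice had higher hepatocyte levels than all controls, and the part of liver RNA in these rises was not tested beyond the liver-adjusted fit. Decr1, a reductase needed to oxidise unsaturated fatty acids, read 1.37, 0.64, 2.27, 3.03 and 0.43 in controls and 4.70, 5.63, 5.56, 3.82 and 4.01 after 4 Gy. The groups did not overlap (3.20 ± 0.53), and the controls with the 3 highest hepatocyte levels were also the 3 highest for Decr1. Acaa2 and Ehhadh rose by 2.94 ± 0.50 and 2.94 ± 0.58. In sterol synthesis Tm7sf2, a sterol reductase, rose by 3.98 ± 0.66, Sc5d by 2.63 ± 0.39, the sterol sensor Insig1 by 2.61 ± 0.41 and Ebp by 2.33 ± 0.35.

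Transcripts of liver macrophages and endothelium and of matrix-forming cells rose too. All 11 tested genes of the former list rose, with a median change of 3.46, and 8 to 10 rose when any 1 array was left out. Liver-adjusted 2 rose and the median was 2.64, and in the normexp fit 5 rose, with a median of 1.85. Marco, a macrophage scavenger receptor, read -2.81, -0.91, -2.32, -1.02 and -2.11 in controls and 1.08, 2.30, 5.00, 3.22 and 5.00 after 4 Gy, a rise of 5.15 ± 0.71, and of 5.36 ± 1.32 liver-adjusted. Clec4f, a lectin of Kupffer cells, rose by 4.57 ± 1.02 and was not called liver-adjusted (0.52 ± 0.52), and 1 irradiated mouse overlapped the controls. Cd5l and Vsig4, both of tissue macrophages, rose by 4.36 ± 0.56 and 4.22 ± 0.59. All 4 tested matrix genes rose, 0 of them liver-adjusted and 2 in the normexp fit, among them decorin, Dcn (4.71 ± 1.03), which read -4.59 and -4.37 in the controls with the lowest hepatocyte levels, Col3a1 (3.09 ± 0.70), Col1a2 (2.23 ± 0.50) and Sparc (2.90 ± 0.56, with another probe at -0.45). The count of matrix genes that rose was 1 without control replicate 2 or 5 or 4 Gy replicate 2 or 3, and 2 without control replicate 3 or 4 Gy replicate 1 or 4. Of 4 tested pancreas genes Cela1 alone rose, by 1.18 ± 0.26, and that count was 0 in the normexp fit, 2 without 4 Gy replicate 3, 1 without control replicate 4 and 0 without any other array. The part of liver RNA in the rise of each of these lists was not tested beyond the liver-adjusted fit.

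Neutrophil granule genes rose about as often as all genes, mature neutrophil genes less often, and monocyte transcripts went both ways. Of 12 tested neutrophil granule genes 2 rose (16.7%, where 16.5% of all genes rose) and 0 fell. In the liver-adjusted and in the normexp fit 1 rose, and 1 fell without control replicate 3 or 4 Gy replicate 3, 4 or 5. Of 16 mature neutrophil genes 1 rose (6.25%) and 0 fell. Of 17 monocyte genes 3 rose and 4 fell, close to or above the shares of all genes, against 1 and 0 in the liver-adjusted fit and 1 and 1 in the normexp fit. Lcn2, the siderophore-binding lipocalin of neutrophil granules and of stressed liver, read 1.51, 2.60, 0.96, 3.90 and 1.41 in controls and 5.08, 6.77, 6.88, 7.34 and 4.71 after 4 Gy, a rise of 4.08 ± 0.62 without overlap. Elane, neutrophil elastase, rose by 2.40 ± 0.40 and Padi4, which citrullinates histones, by 1.52 ± 0.34. Padi4 was the 1 call of its list, which was lost in the normexp fit and without control replicate 1, 3, 4 or 5 or 4 Gy replicate 4 or 5. S100a8, a calcium-binding protein abundant in neutrophils and named after its values were seen, changed by 0.65 and was not called. The mature neutrophil level was 4.63 in 4 Gy replicate 4 and 1.72 to 3.03 in the other irradiated mice, against 1.21 to 2.43 in controls, and 5 genes of that list rose in the liver-adjusted fit.

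Monocyte genes split. The endotoxin co-receptor Cd14 read -3.29, -1.81, -3.65, -2.10 and -2.99 in controls and -1.66, -0.91, 1.05, 0.94 and 0.46 after 4 Gy, with no overlap and a rise of 2.74 ± 0.54, and the mannose receptor Mrc1, also on liver endothelium, rose by 2.99 ± 0.57. Neither was called liver-adjusted. Besides Cx3cr1, the genes that fell, chosen after their values were seen, were Nr4a1 (-1.47), Ace (-1.72) and Treml4 (-1.15). Of these 4 genes 2 were called without control replicate 2, 4 or 5 or without 4 Gy replicate 2, and 0 in the liver-adjusted fit. Among Toll-like receptors and adaptors 2 of 11 rose (18.2%, close to the 16.5% of all genes), Cd14 and the DNA sensor Tlr9 (1.54 ± 0.34). The signalling kinase Irak1 fell by 0.84 ± 0.18 (9.09% of the list, where 18.6% of all genes fell). In the liver-adjusted and normexp fits and without control replicate 1, 0 genes of this list were called. The count that rose was 1 without control replicate 2, 3 or 5 or 4 Gy replicate 2, 3 or 4, and the call of Irak1 was lost without control replicate 2, 3 or 5 or 4 Gy replicate 1, 2 or 4. Without 4 Gy replicate 4, 2 other genes of the list fell. Of 22 tested platelet genes Clec1b, the podoplanin receptor, rose by 1.25 ± 0.27, 0 fell, and the list median was 1.02. The count that rose was 2 in the liver-adjusted fit, 0 in the normexp fit, 6 without 4 Gy replicate 3, 3 without 4 Gy replicate 2, and 0 without control replicate 1, 3 or 5 or 4 Gy replicate 1, 4 or 5.

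Genes of the general machinery moved by smaller amounts. Of 59 tested ribosomal protein genes 13 fell and 0 rose, with a median change of -0.64, and 5 fell in the liver-adjusted fit. Rps18 fell by 1.46 ± 0.21 and Rps7 by 1.25 ± 0.21. This share (22%) was close to the 18.6% of all genes that fell, and the count was 25 without control replicate 4 and 5 to 10 without any other array. Of 17 tested splicing factors 5 fell, Srsf1 by 1.27 ± 0.21 and Srsf3 by 1.42 ± 0.21 (9 fell without control replicate 4, and 3 without control replicate 1, 3 or 5 or 4 Gy replicate 2, 3 or 4), the latter with a change of 0.18 in the normexp fit, where 0 were called. Of 6 tested aminoacyl-tRNA synthetases 2 rose, Aars by 1.73 ± 0.37 and Eprs by 1.37 ± 0.28, and 0 in the liver-adjusted or normexp fit or without control replicate 2, 3 or 5. The count was 1 without control replicate 1 or 4 Gy replicate 1, 2 or 3.

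**Figure D4:**
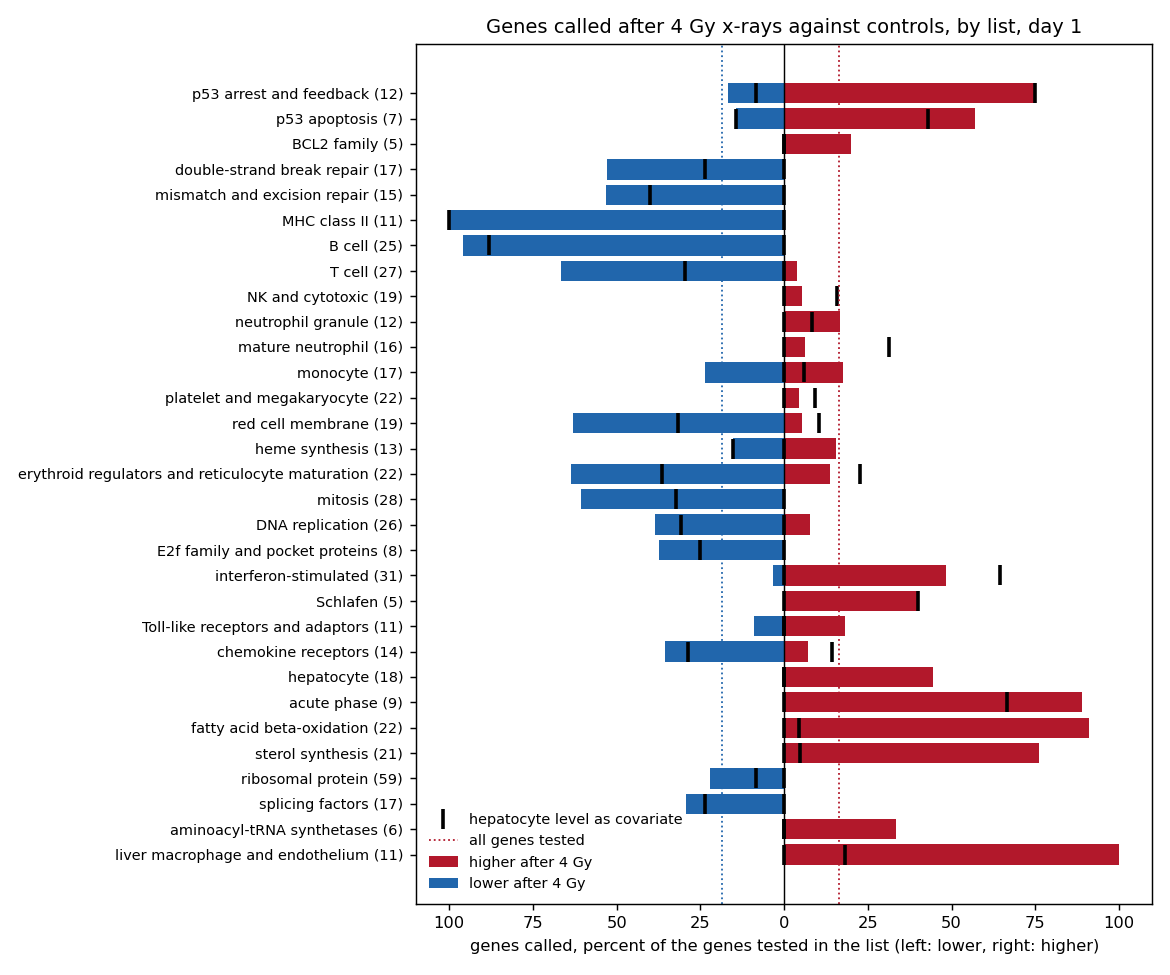
Percentage of the tested genes of each list (number in brackets, lists of at least 5 genes) that rose (red bars, to the right) or fell (blue bars, to the left) after 4 Gy of x-rays against controls. Dotted lines mark all genes tested (16.5% up, 18.6% down) and black ticks the shares in the liver-adjusted fit. The class II, B cell and p53 arrest lists keep nearly their whole share there, and beta-oxidation and sterol synthesis lose nearly all of it.

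The doses were compared by testing the 5 mice given 4 Gy against the 6 given 1 Gy, which share no control. Of 10863 genes 1914 (17.6%) differed, 497 (4.58%) higher and 1417 (13%) lower at 4 Gy. With the liver adjustment 1303 (12%) differed, 180 (1.66%) higher and 1123 (10.3%) lower. Slide 11 held 4 Gy replicate 1 and 1 Gy replicates 4 to 6, and with slide as a block 91 genes differed, 8 higher and 83 lower. As no other slide held both doses, that fit sets 1 mouse given 4 Gy against 3 given 1 Gy in its estimate of the difference. The hepatocyte level in 1 Gy mice was 7.11, 3.65, 2.76, 6.42, 6.67 and 5.55, below all 4 Gy mice.

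Several p53 targets were not called between the doses. Bax differed by 0.01 ± 0.22 (95% interval -0.47 to 0.48), Psrc1 by -0.03 ± 0.22 (-0.51 to 0.44), Ccng1 by 0.15 ± 0.18 (-0.24 to 0.54) and Zmat3 by 0.17 ± 0.17 (-0.20 to 0.54). For Ccng1 the 1 Gy mice read 1.29, 1.66, 1.51, 1.29, 1.11 and 1.33, within or just below the 4 Gy range and all above the controls. Cdkn1a read -0.66, -0.38, -0.87, -0.26, -0.59 and 0.32 after 1 Gy and was higher at 4 Gy by 1.04 ± 0.23 (adjusted p = 0.00428), and by 0.66 with slide as a block. Of the arrest and feedback list 3 of 12 genes were higher at 4 Gy, Cdkn1a, Plk2 (2.00 ± 0.32) and Rps27l (1.42 ± 0.32), and 2 were lower, Trp53 (-1.40 ± 0.21) and Sesn1 (-1.20 ± 0.22). With slide as a block 0 genes of the list were called. Trp53 after 1 Gy read -0.96, -1.82, -1.47, -1.47, -1.81 and -1.48, between the controls and the 4 Gy mice for most animals.

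Lymphoid transcripts differed strongly between the doses. All 11 class II genes and 21 of 25 B cell genes were lower at 4 Gy, with median differences of -2.80 and -3.11. With slide as a block, and so with 4 Gy replicate 1 as the only 4 Gy mouse compared, 11 and 18 were lower. The list levels of that mouse minus the mean of its 1 Gy neighbours on the slide were -3.97 and -3.52. Cr2 read 1.18, 2.08, 2.01, 1.55, 1.72 and 1.78 after 1 Gy, between controls and 4 Gy with no overlap on either side, and differed by -4.47 ± 0.21 (adjusted p = 7.20e-08). Cd8a read 0.81, 1.45, 1.52, 1.13, 1.44 and 1.29 after 1 Gy, with 3 of the 6 mice above all controls and the others within their range, and differed from 4 Gy by -3.60 ± 0.27 (adjusted p = 4.69e-06). Of 27 T cell genes 22 were lower at 4 Gy, and 1 with slide as a block, where the median difference was -1.28.

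Red cell membrane genes were not called between the doses, and some interferon-stimulated genes were. Of 19 red cell membrane genes 0 differed between 4 and 1 Gy by the call, with a median difference of -1.04. Slc4a1 read 3.55, 4.02, 4.51, 3.28, 2.38 and 2.62 after 1 Gy, below all controls, and differed from 4 Gy by -1.58 ± 0.50 (95% interval -2.67 to -0.49, adjusted p = 0.0244), or by 0.11 with slide as a block. Of 31 interferon-stimulated genes 6 were higher at 4 Gy, among them Ifit3 (2.05 ± 0.36), which read 1.91, 3.05, 1.72, 2.00, 2.61 and 2.51 after 1 Gy. With slide as a block 0 of the 31 were called, and the difference of Ifit3 was 2.14. Of 28 mitosis genes 19 were lower at 4 Gy, with a median difference of -1.37, and 0 with slide as a block. Ccna2 differed by -1.48 ± 0.34 and was called, whereas Ube2c differed by -1.34 ± 0.44 (adjusted p = 0.0290) and was not called.

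Of the named genes that rose, the metallothioneins differed most between the doses. Mt2 read 2.24, 0.26, 0.69, 3.15, 1.42 and 1.73 after 1 Gy, where controls read 0.67, -0.99, 0.46, 3.31 and -1.12, and the difference between 4 and 1 Gy was 6.14 ± 0.44 (adjusted p = 2.67e-06). With slide as a block it was 5.92. Mt1 differed by 5.42 ± 0.53. The first 1 Gy mouse had a hepatocyte level of 7.11, close to the 7.37 of 4 Gy replicate 4, and read 2.24 for Mt2 against 7.83. These were single mice on slides 10 and 12, and the part of liver RNA in the Mt2 difference was not tested. Lcn2 differed by 4.02 ± 0.48 and Usp2 by 2.94 ± 0.55, and with slide as a block by 2.86 and 3.01, which were not called. Saa3 (1.79 ± 1.13, 95% interval -0.67 to 4.24) and Marco (1.58 ± 1.03, -0.64 to 3.81) were not called, and with slide as a block their differences turned to -2.71 and -2.0. Of 22 beta-oxidation genes 9 were higher at 4 Gy, 1 with the liver adjustment and 0 with slide as a block.

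**Figure D5:**
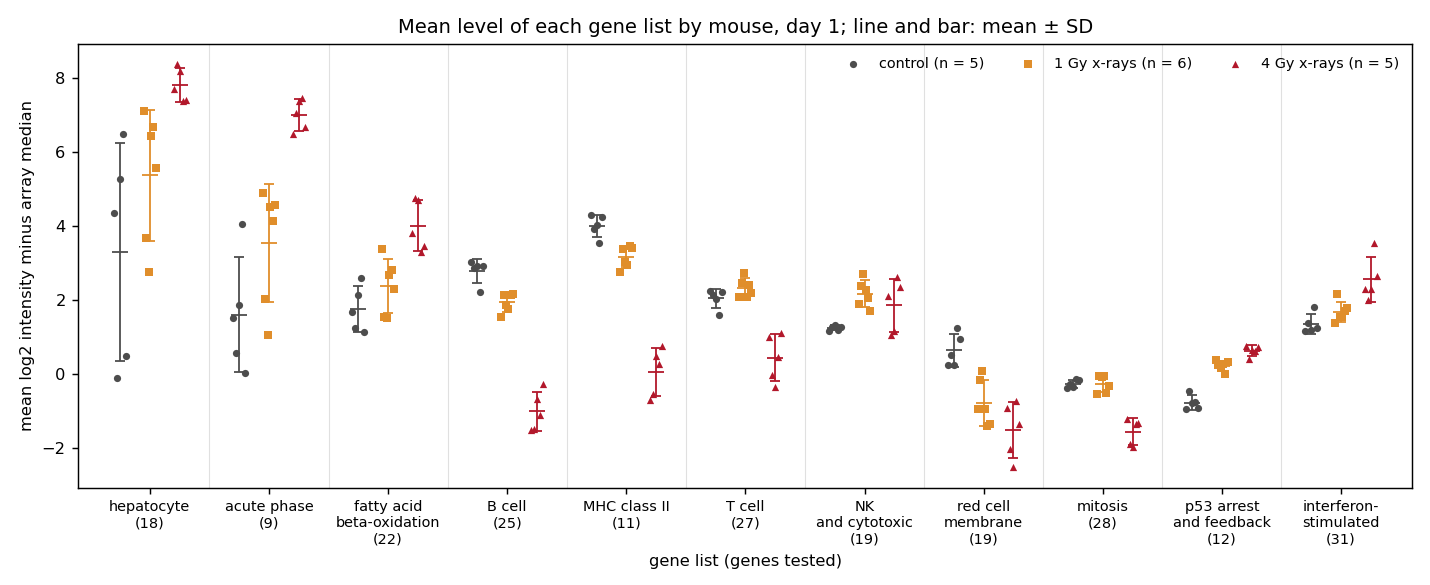
Mean level of 11 gene lists (vertical axis, log2 intensity minus array median, number of genes in brackets) in control (grey circles, n = 5), 1 Gy x-ray (orange squares, n = 6) and 4 Gy x-ray mice (red triangles, n = 5), with the mean and SD of each group. B cell and class II lists step down from control to 1 Gy to 4 Gy, the T cell and mitosis levels at 1 Gy overlap the controls, and hepatocyte levels rise above 7 in all 4 Gy mice.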

How the data were processed

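Feature Extraction intensities of 1-colour Agilent arrays were used, 1 array per mouse. Per the file headers the authors scanned the arrays and deposited each spot's processed signal, an intensity corrected for background and for spatial trends with Agilent Feature Extraction 12.0.2; the normalized log2 table that the authors deposited was not used, because many of its columns follow the array of another sample than the one named, nor were the arrays of day 3.

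Signals of the 43020 probe spots were taken as log2, averaged per probe and centred on each array's median of detected probes. Probes were kept when fewer than 25% of 56 arrays flagged or failed to detect them and at least 20% of arrays lay at least 1.5-fold from the probe's median, and the brightest probe stood for a gene, leaving 10863 genes. Depth is not defined for arrays, and the number of arrays limits the precision. limma 3.58.1 in R 4.3.3 (lmFit and eBayes, 2-sided) was fitted to the 10 arrays, or to 11 for the doses, with Benjamini-Hochberg adjustment, and was checked on simulated data. The liver-adjusted fit took the 28 arrays of day 1. Symbols were updated by accession for 28330 probes. The members and gene lists were chosen with earlier results of these data known. Named were the 10 largest rises and falls among called genes without overlap between groups, in each of the unadjusted and liver-adjusted fits. Also named were the 4 largest called changes of each list and every tested member of the p53, damage repair and class II lists. The cell cycle genes E2f2, Ube2c, Fzr1, Ccna2, Cdc25b and Nusap1, and the phospholipase gene Pla2g2d, were chosen by name. A few genes that this rule names are not reported here. The others are marked as chosen or named after their values were seen, except Alb and Myh6, which were also named outside the rule. Alternatives covered background correction, centring, filters, probe choice, blocks, the covariate and leaving out each array.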

Additional observations from a re-analysis of the deposited data

Results flagged for a closer look

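In 386 groups of 5 values (named genes, list levels and array measures), the highest or lowest value lay far from the rest of its group in 24 (6.22%), where chance gives about 1 in 20. Of these, 15 were control replicate 4. It was the highest control for Saa1 (6.11) and Aars (1.69). It was the lowest control for Fcmr (5.04), Sesn1 (2.10), Ddb2 (-0.41), H2-DMb1 (3.94), Cd74 (5.64), Cd8a (0.15), Pold1 (1.29), Rbl1 (-0.87), Cxcr5 (2.85), Ccr9 (-1.27) and Srsf3 (-3.10), and for the list levels of B cells (2.21) and splicing factors (0.55). Among the other controls, Triap1 was low in replicate 1 (1.61) and the spike-in level high in replicate 5 (13.87).

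In the 4 Gy group, replicate 4 was the highest for Oasl1 (6.58), Socs3 (5.67) and the neutrophil granule list (2.53), and the lowest for the p53 apoptosis list (2.04). Replicate 5 was the highest for ENSMUST00000192250 (-1.51) and Srsf1 (-0.16), and replicate 2 the lowest for Fcer2a (-5.10). What sets these mice apart was not tested.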

How the results depend on the processing

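The count of genes changed by 4 Gy against controls was 3813. Normexp background correction gave 1294 (648 up, 646 down), the liver-adjusted fit over day 1 gave 1788 (725 up, 1063 down), and the same covariate over the 10 arrays alone gave 647 (191 up, 456 down). Spike-in centring gave 2840, with 1767 up and 1073 down (37.8% down, against 53.1%), and moved the median of all genes by 0.25. Centring on the 75th percentile moved it by -0.14 and gave 60.7% down, and the spread from all day 1 arrays 60.6%. The other settings, apart from the replicate block given below, gave 3721 to 4758. Without 1 array the counts were 2831 to 3747 (1327 to 1788 up, 1504 to 1959 down), and the difference in the share of spots well above background was -0.00244 to 2.89 percentage points. The cause of these shifts was not tested.

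For 4 against 1 Gy (1914 genes), spike-in centring gave 735 (218 up, 517 down), normexp 357 (66 up, 291 down), scan date as a fixed block 120 (4 up, 116 down), slide as a fixed block 91 (8 up, 83 down), and the covariate over the 11 arrays 467 (27 up, 440 down). Of the higher genes 792 were counted with slide as a random block and 180 in the liver-adjusted fit. Without 1 array the counts were 1325 to 2072 (188 to 778 up, 1111 to 1340 down).

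With the replicate number as a block, 2747 genes changed after 4 Gy and 476 differed between the doses (26 up, 450 down). Control and 4 Gy samples of the same number deviated together with correlations of -0.30 to 0.30, over 0.1 in 2 of 5 numbers, and 2 of 5 numbers matched best with their own, so the samples share only a number and no pairing was assumed.

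Under normexp the changes of Rrm2b (0.079), Fanci (0.14), Exo1 (0.39) and Srsf3 (0.18) turned direction, dim probes limit these values, and 47 other named genes lost their call. Of 151 named genes 140 were called, 49 kept their call in all alternatives, and 25 lost it without at least 1 array.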
